A study of Mus musculus with 4 samples.

Results

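Cell division in mouse liver was followed through 49 genes of the cell cycle, sorted by the phase in which their products act. The genes were taken by name: every gene probe of the arrays whose name in the files, or whose accession in a RefSeq table, is that of a listed gene was used. All 49 were found, on 74 of 41174 gene probes and among 28778 genes. They comprise 8 genes of G1 and of the switch from G1 to S phase, 16 genes of S phase, and 25 genes of G2 and mitosis. The array files name Cdk1 by its older symbol Cdc2a, and Cdc45 as Cdc45l.

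Liver RNA came from food-deprived mothers, control mothers, food-deprived fetuses and control fetuses, all of the inbred strain C57BL/6J. The submitters' design text gives 5 to 10 biological replicates pooled per condition, so each of these groups is a pool of animals. The maternal pools were compared on 2 two-colour arrays and the fetal pools on 2 more. On the first array of a pair the food-deprived pool carried the dye Cy5 and the control pool Cy3, and on the second the dyes were exchanged. The labels do not settle whether the second array used the same pool, so n = 1 pool per group: there is no significance test, and the spread between paired arrays may be technical only. The sources used here give neither how long food was withheld, nor the gestational stage, nor fetal sex.

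Values are log2 ratios of food deprivation over control, so that -1 is a 2-fold lower and 1 a 2-fold higher signal in the food-deprived pool. A gene was called when its mean over the 2 arrays reached 2-fold and neither array fell short of 1.5-fold in that direction, and the words rose and fell are kept for called genes. The SD of a ratio on 1 array, taken over all measured genes from how paired arrays differed, was 0.16 in the mother and 0.15 in the fetus. By array and dye, 53.2% to 69.7% of gene spots stood well above background, and none was saturated. In bulk RNA, fewer cells of a type and less RNA per cell cannot be told apart.

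A cell commits to division in G1, where D-type cyclins with Cdk4, and then E-type cyclins with Cdk2, phosphorylate the retinoblastoma protein and free E2F transcription factors such as E2f1. E2F targets supply S phase: the Mcm2 to Mcm7 helicase, its loaders, the DNA polymerases and the enzymes that make deoxynucleotides. A later wave, driven by B-Myb and FoxM1, supplies the cyclins, kinases, spindle proteins and ubiquitin ligase parts of mitosis. Hepatocytes of adult liver are mostly quiescent and keep the ability to divide, and fetal liver grows fast while also making blood cells.

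In the mother, 9 of the 41 measured genes fell under food deprivation and none rose. Over all 16146 genes measured in the mother, 1.88% were called lower and 1.56% higher. The 9 were Ccnd1 in G1, Mcm6 and Tk1 in S phase, and Ccnb2, Mki67, Cdc20, Aurka, Birc5 and Kif20a in G2 and mitosis. Of the 41 genes, 34 had a mean ratio below 0, with a median of -0.39, against 52.0% of all genes and a median of -0.01. All 41 were well above background on both arrays in control mothers, and 33 in food-deprived mothers. The others were measured through the control pool only, where a ratio below 0 is favoured. With no filter on dim probes, 40 of 49 means lay below 0, with a median of -0.26. Over all genes the share below 0 was then 50.9%. The phases lay at -0.05 for G1 and the G1/S switch, -0.26 for S phase and -0.42 for G2 and mitosis (medians over 6, 14 and 21 measured genes). On the first array alone they were -0.04, -0.25 and -0.62, and on the second alone -0.07, -0.29 and -0.28, so S phase and mitosis were not apart on the second array.

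**Figure D1:**
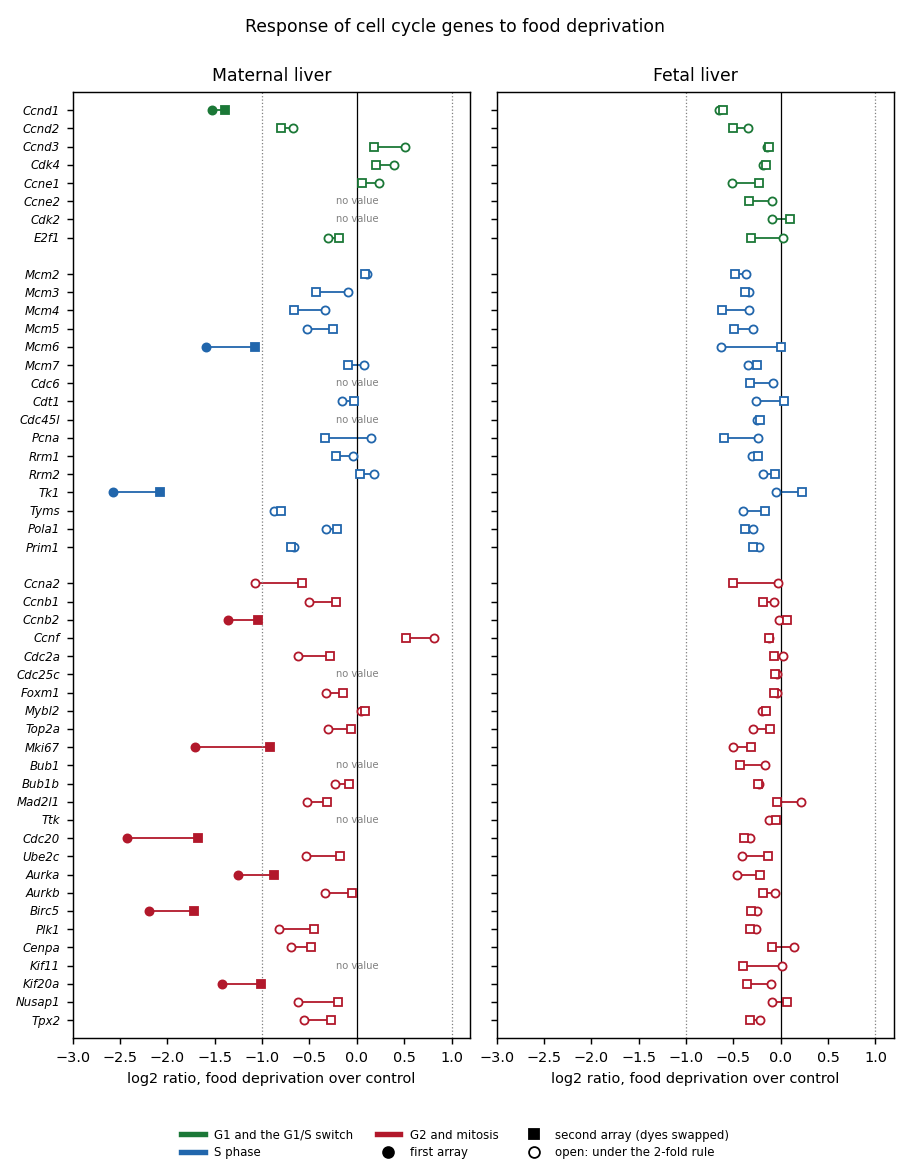
Log2 ratio of food deprivation over control for each gene in maternal (left) and fetal liver (right), by phase; circles are first arrays and squares second arrays, filled where the gene was called, with dotted lines at a 2-fold change. In the mother 9 genes lie at or beyond the 2-fold mean on the low side, and in the fetus none does.

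Of the G1 genes, Ccnd1, which encodes cyclin D1, the cyclin through which growth signals and nutrients enter the cycle, had maternal ratios of -1.53 and -1.39, a level 2.75-fold lower. Its probe is spotted 10 times on each array, and the spot ratios ranged from -1.62 to -1.44 on the first maternal array and from -1.49 to -1.26 on the second, so no spot of either array came near 0. Cyclin D2 (Ccnd2) stood at -0.67 and -0.80, under the 2-fold rule. The rest of the phase was near 0 or above it. Cyclin D3 (Ccnd3) had ratios of 0.51 and 0.18, its kinase partner Cdk4 0.39 and 0.20, and cyclin E1 (Ccne1) 0.23 and 0.05, although the second probe of Ccne1 gave a mean of -0.05. E2f1 lay at -0.30 and -0.19 and was well above background on only 1 of the 2 arrays in the food-deprived pool. Cyclin E2 (Ccne2) and Cdk2 were well above background on both arrays in neither maternal pool and have no maternal value.

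S phase was split between 2 large falls and many small differences. Tk1, the thymidine kinase that salvages thymidine for DNA synthesis, gave -2.58 and -2.08, or 5.04-fold lower, the lowest ratio among the 41 genes. Mcm6, a subunit of the replicative helicase, gave -1.59 and -1.08, or 2.53-fold lower. The other subunits of the same ring did not pass the rule: Mcm2 lay at 0.11 and 0.09, Mcm3 at -0.09 and -0.43, Mcm4 at -0.34 and -0.66, Mcm5 at -0.53 and -0.25, and Mcm7 at 0.08 and -0.09. The helicase genes thus had unlike ratios in the same pools, with Mcm6 apart from the other 5 under this processing. With the scanner software's own ratios Mcm5 was called lower too. In control mothers Mcm2 and Mcm5 had log2 levels of 7.41 and 7.63, closer to dim spots than Mcm4 (9.39) and Mcm7 (10.07).

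Among the remaining S-phase genes, thymidylate synthase (Tyms), which makes thymidylate from deoxyuridylate, stood lowest at -0.88 and -0.80. Primase subunit Prim1 followed at -0.66 and -0.69. The sliding clamp Pcna had opposite signs on its arrays, 0.15 and -0.34, over 10 spots on each. Ribonucleotide reductase, which makes deoxynucleotides, showed -0.04 and -0.22 for its large subunit Rrm1 and 0.18 and 0.03 for its small subunit Rrm2. The helicase loader Cdt1 (-0.16 and -0.03) and polymerase alpha (Pola1, -0.33 and -0.21) were also within the rule. Cdc6, the other loader, and Cdc45l, which activates the helicase, have no maternal value because neither pool was well above background on both arrays.

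The 6 falls in G2 and mitosis included the 2 lowest ratios of that phase, those of Cdc20 and Birc5. Cdc20, the activator of the anaphase-promoting complex, gave -2.43 and -1.68, or 4.16-fold lower. Birc5, or survivin, of the chromosomal passenger complex, gave -2.19 and -1.72, or 3.87-fold lower. The kinesin Kif20a, which acts in cytokinesis, gave -1.42 and -1.01, and cyclin B2 (Ccnb2) -1.36 and -1.04. The spindle pole kinase Aurka gave -1.25 and -0.88. Mki67, the source of the Ki-67 antigen of dividing cells, gave -1.71 and -0.92 on its brighter probe and a mean of -0.46 on the other. Aurka and Mki67 did not pass on the second array alone, which left 7 genes lower, and the first array alone gave 10, with Ccna2 added. With arrays centred on their medians 5 genes were lower, and Ccnd1, Mcm6, Ccnb2 and Aurka were not, while 0.508% of all genes were lower and 0.279% higher.

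The 15 mitotic genes that were measured and not called all had mean maternal ratios between -0.83 and 0.67. Cyclin A2 (Ccna2) was lowest of them, at -1.08 and -0.58, followed by polo-like kinase Plk1 (-0.82 and -0.45) and the centromeric histone Cenpa (-0.69 and -0.48). Cdc2a, the kinase that drives mitosis, stood at -0.62 and -0.28, and the spindle checkpoint protein Mad2l1 at -0.53 and -0.31. The spindle proteins Nusap1 (-0.62 and -0.20) and Tpx2 (-0.56 and -0.27), the ubiquitin-conjugating enzyme Ube2c (-0.54 and -0.18), the transcription factor Foxm1 (-0.33 and -0.15) and the checkpoint kinase Bub1b (-0.23 and -0.08) were likewise below 0 on both arrays. Cyclin B1 (Ccnb1) gave -0.51 and -0.22, topoisomerase II alpha (Top2a) -0.30 and -0.06, and the passenger kinase Aurkb -0.34 and -0.05. In the food-deprived pool these genes were not well above background on either array. Their lower limits there, 1.29-fold, 1.13-fold and 1.14-fold, equal the measured mean folds and are no firmer than those. Foxm1, Bub1b, Nusap1 and Tpx2 were well above background there on 1 array of 2. Of the 15, only Ccnf and Mybl2 lay above 0 on both arrays: cyclin F (Ccnf), the receptor of a ubiquitin ligase, at 0.81 and 0.52, and B-Myb (Mybl2) at 0.04 and 0.09. The phosphatase Cdc25c, the checkpoint kinases Bub1 and Ttk and the spindle motor Kif11 have no maternal value.

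Signal over background went with the calls in G2 and mitosis. In control mothers the 6 called mitotic genes had log2 channel levels of 8.76 to 10.06, and the 15 uncalled ones 6.77 to 8.21, while the 8 genes with no maternal value sat at 6.51 to 6.69, the level of dim spots after an offset of 50 was added to each background-corrected signal. A gene whose level lies close to that of dim spots can show only a small ratio here. Levels of different probes are given as signal over background and do not rank the genes by abundance. In S phase the levels of the 2 called genes (9.91 and 10.68) lay inside the range of the 12 uncalled ones (7.41 to 11.10), so that signal did not separate them there. With an offset of 16 in place of 50, 10 genes were lower in the mother (2.19% of all genes), and the median of G2 and mitosis was -0.65. The scanner software's own ratios carry no such offset and differ in background correction and dye normalisation too. With them 26 of the 41 genes were called lower in the mother, among them all 9 above, and 1, Ccnf, was called higher, while 4.97% of all genes were lower and 4.09% higher. The median of G2 and mitosis was then -1.97, that of S phase -0.38 and that of G1 -0.36.

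**Figure D2:**
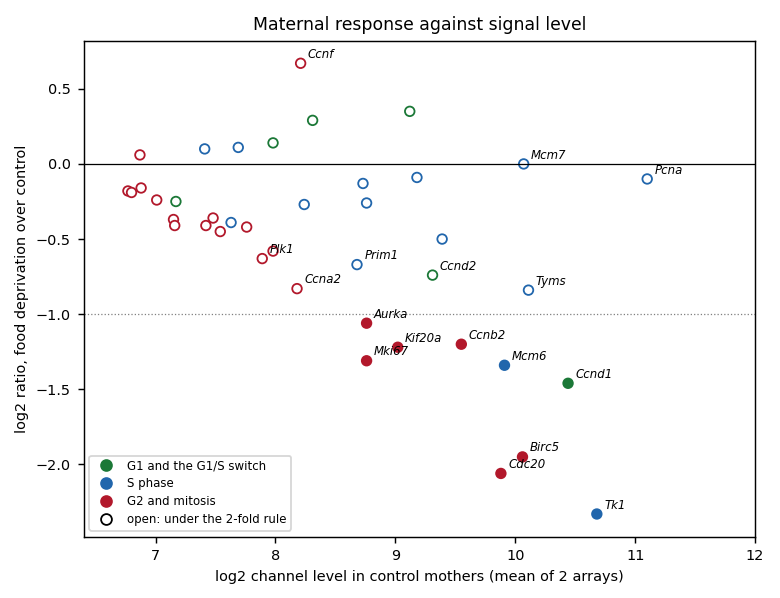
Mean log2 ratio of food deprivation over control in the mother against the mean log2 channel level in control mothers, 1 point for each of the 41 measured genes, coloured by phase and filled where called. Mitotic genes at levels up to 8.21 are all open, and those from 8.76 upward are all filled.

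Fewer mitotic genes were detected in food-deprived mothers. Of the 25 mitotic genes, 14 were well above background on both arrays in food-deprived mothers and 21 in control mothers. Of the 16 S-phase genes, 14 were detected in each maternal pool, and of the 8 G1 genes, 5 in food-deprived mothers and 6 in control mothers. Over all genes of the array the shares were 53.5% in food-deprived mothers and 54.8% in control mothers. In the fetus all 49 were detected in both pools.

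Promoters of cell cycle genes are known for short motifs that go with their phase, and windows are shown here for genes that fell in the mother. E2F sites mark the G1/S wave. The CCAAT box, bound by NF-Y, and the cell cycle homology region, bound by the DREAM and MuvB complexes, mark the mitotic wave. RefSeq windows of GRCm38.p6, from 250 bases before to 50 bases after the start of the gene, were found for 39 of the 49 genes. They were searched on both strands for the CCAAT box (CCAAT), the cell cycle homology region (TTTGAA or TTCGAA) and the E2F site (TTTCCCGC or TTTGGCGC). Matches of different motifs overlapped in 0 of the 41 windows of these 39 genes, some of which have more than 1 window. Capitals mark the matches, and the 6 genes were chosen after their ratios were seen.

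Mcm6 promoter, chr1:128359656-128359955, minus strand: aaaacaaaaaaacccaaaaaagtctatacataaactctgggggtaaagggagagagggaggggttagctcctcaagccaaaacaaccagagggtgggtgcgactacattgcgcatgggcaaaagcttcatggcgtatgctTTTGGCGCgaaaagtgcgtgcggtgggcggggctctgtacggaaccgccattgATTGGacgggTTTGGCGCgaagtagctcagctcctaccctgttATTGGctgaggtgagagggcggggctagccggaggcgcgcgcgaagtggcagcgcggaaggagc
Cdc20 promoter, chr4:118437294-118437593, minus strand: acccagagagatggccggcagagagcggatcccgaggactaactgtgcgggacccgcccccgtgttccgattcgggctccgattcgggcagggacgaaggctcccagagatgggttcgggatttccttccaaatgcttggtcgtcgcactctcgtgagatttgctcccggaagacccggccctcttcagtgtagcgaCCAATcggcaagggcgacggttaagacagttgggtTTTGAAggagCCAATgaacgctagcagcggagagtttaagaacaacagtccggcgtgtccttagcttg
Ccnb2 promoter, chr9:70421505-70421804, minus strand: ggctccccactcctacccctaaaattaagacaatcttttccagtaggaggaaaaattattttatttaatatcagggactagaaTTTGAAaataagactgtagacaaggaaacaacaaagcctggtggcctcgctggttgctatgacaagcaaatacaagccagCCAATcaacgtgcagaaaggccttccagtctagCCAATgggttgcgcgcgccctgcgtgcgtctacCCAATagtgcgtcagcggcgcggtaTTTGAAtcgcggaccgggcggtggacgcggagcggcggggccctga
Aurka promoter, chr2:172370521-172370820, minus strand: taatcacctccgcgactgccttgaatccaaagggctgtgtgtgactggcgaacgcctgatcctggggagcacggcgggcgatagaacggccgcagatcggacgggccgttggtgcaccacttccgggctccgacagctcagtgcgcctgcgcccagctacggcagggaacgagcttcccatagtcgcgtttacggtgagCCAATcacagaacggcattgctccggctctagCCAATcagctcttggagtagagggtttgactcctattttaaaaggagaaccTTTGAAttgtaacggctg
Tk1 promoter, chr11:117825965-117826264, minus strand: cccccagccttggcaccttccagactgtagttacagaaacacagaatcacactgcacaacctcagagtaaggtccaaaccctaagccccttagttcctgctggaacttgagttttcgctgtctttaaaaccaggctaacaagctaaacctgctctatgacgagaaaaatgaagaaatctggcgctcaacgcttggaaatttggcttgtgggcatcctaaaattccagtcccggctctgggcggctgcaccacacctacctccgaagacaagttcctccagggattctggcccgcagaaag
Birc5 promoter, chr11:117848987-117849286, plus strand: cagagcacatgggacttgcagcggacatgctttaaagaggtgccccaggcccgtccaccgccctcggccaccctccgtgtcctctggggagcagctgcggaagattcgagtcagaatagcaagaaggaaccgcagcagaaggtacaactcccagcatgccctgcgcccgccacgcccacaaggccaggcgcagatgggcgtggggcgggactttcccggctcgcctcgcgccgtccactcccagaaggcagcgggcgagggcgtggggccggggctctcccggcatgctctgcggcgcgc

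Of the 9 genes that fell in the mother, 7 have a window. Mcm6 holds E2F sites and CCAAT boxes. Cdc20, Ccnb2, Aurka and Mki67 hold both CCAAT boxes and a cell cycle homology region. Tk1 and Birc5, with the first and the third lowest maternal ratios, hold none of these letters in the window.

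S-phase and mitotic windows differed in cell cycle homology regions and E2F sites. They held a CCAAT box in similar shares, 73.3% in S phase and 78.9% in mitosis. A cell cycle homology region was found in 14 of 19 mitotic windows, 3 of 15 S-phase windows and 0 of 5 G1 windows, against 21.7% of all 27025 genes with a window. An E2F site was found in 0 of 19 mitotic, 7 of 15 S-phase and 1 of 5 G1 windows, against 1.8% of all genes. A CCAAT box was found in 15 of 19 mitotic, 11 of 15 S-phase and 2 of 5 G1 windows, against 41.1% of all genes. The S-phase genes with an E2F site were Mcm3, Mcm5, Mcm6, Mcm7, Cdc6, Cdt1 and Pola1, and the G1 gene was Cdk2. Base composition was not matched: the median GC content was 59.3% for the 39 genes and 52.8% for all genes. A match is a run of letters and not a bound site.

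In the fetus none of the 49 genes passed the rule in either direction. Over all 18051 genes measured in the fetus, 0.266% were called lower and 0.465% higher. The ratios were small and leaned one way: 44 of 49 means lay below 0, against 48.8% of all genes, and 39 genes were below 0 on both arrays while none was above 0 on both. Of all 18051 genes, 5587 were below 0 on both arrays and 5769 above 0 on both. Medians were -0.19 for G1 and the G1/S switch, -0.29 for S phase and -0.19 for G2 and mitosis, with all genes at 0.00. The lean depends on the scaling: with each array centred on its median in place of loess, 29 of 49 means lay below 0, against 31.5% of all genes, and the phase medians were -0.01, -0.04 and 0.01, with all genes at 0.09.

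Erythroid markers leaned the same way: all 11 on the array were below 0 with a median of -0.24, none was called, and their summed level was 111357 to 140983 in food-deprived fetuses and 146870 to 148523 in control fetuses. Stellate cell and fibroblast markers leaned lower too, with a median of -0.37 and 5 of 7 below 0. Those summed to 19661 to 20813 in food-deprived fetuses and 21350 to 24437 in control fetuses. Hepatocyte, megakaryocyte and endothelial markers had fetal medians of 0.23, 0.14 and 0.11. All these marker ratios come from the loess scaling, and the part of these cells in the fetal ratios was not tested.

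The lowest fetal value belonged to Ccnd1, at -0.65 and -0.61, or 1.55-fold lower. Its spot ratios ran from -0.82 to -0.52 on the first fetal array and from -0.85 to -0.46 on the second. Cyclin D2 gave -0.35 and -0.50. Cyclin D3 (-0.15 and -0.12) and Cdk4 (-0.19 and -0.16) were close to 0, Ccne1 stood at -0.52 and -0.23, and Ccne2 at -0.09 and -0.34. Cdk2 and E2f1 had opposite signs on their arrays, with means of 0.01 and -0.14.

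The fetal S-phase genes kept close to each other, with means from -0.48 to 0.08. Mcm4 was lowest at -0.34 and -0.62, then Pcna at -0.24 and -0.60 and Mcm2 at -0.37 and -0.48. Mcm3 (-0.36), Mcm5 (-0.39) and Mcm7 (-0.30) had means of about the same size. The arrays of Mcm6 disagreed, at -0.63 and 0.00, the lowest of the helicase on the first array and the highest on the second. Means between -0.33 and -0.11 were found for Pola1, Tyms, Rrm1, Prim1, Cdc45l, Cdc6, Rrm2 and Cdt1. Tk1, the lowest in the mother, was the highest in the fetal S phase, at -0.05 and 0.22.

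Fetal mitotic genes ranged from -0.40 for Mki67 (-0.50 and -0.31) to 0.08 for Mad2l1 (0.21 and -0.04). Cdc20 gave -0.33 and -0.39, Aurka -0.46 and -0.22, Birc5 -0.25 and -0.31 and Kif20a -0.10 and -0.36. Ccnb2, called in the mother, lay at -0.02 and 0.07. Plk1, Bub1, Ube2c, Tpx2, Ccna2, Bub1b and Top2a had means between -0.30 and -0.20, and Kif11, Mybl2, Ccnb1, Aurkb, Ccnf, Ttk, Foxm1, Cdc25c, Cdc2a, Nusap1 and Cenpa had means between -0.19 and 0.03. All 25 mitotic means lay within 0.40 of 0, beside an array SD of 0.15. Xist, the RNA made from the inactive X in females, fell in the same fetal pools (-3.58 and -2.62), and the part of a difference in sex between the pools was not tested.

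Set against each other array by array at equal dye orientation, the maternal response was lower than the fetal one by the same rule for 5 of the 41 genes, and higher for none. Over 15596 genes, 1.76% were called lower and 1.23% higher in this difference. The 5 were Tk1 (-2.54 and -2.30), Cdc20 (-2.10 and -1.29), Birc5 (-1.94 and -1.40), Ccnb2 (-1.33 and -1.10) and Mcm6 (-0.96 and -1.08). Kif20a, at -1.32 and -0.65, just missed the mean of 2-fold with 1.98-fold, and Mki67 (-1.21 and -0.61), Ccnd1 (-0.88 and -0.78) and Aurka (-0.79 and -0.65) were further from it. Ccnd1 was thus low in both, at -1.46 in the mother and -0.63 in the fetus, while Tk1 stood at -2.33 in the mother and 0.08 in the fetus, and Ccnb2 at -1.20 in the mother and 0.02 in the fetus.

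By phase, the median difference was 0.18 for G1 and the G1/S switch, 0.04 for S phase and -0.40 for G2 and mitosis, with all genes at -0.02. Under median centring these were -0.04, -0.17 and -0.63, with all genes at -0.11. The order of the phases was the same under both scalings, and the signs of the first and the second were not. The mitotic median was -0.56 on the first arrays alone, -0.13 on the second arrays alone and -0.24 with no filter on dim probes. The SD of this difference per array was 0.13. With the scanner software's own ratios 22 of the 41 genes were lower in this difference and 1 was higher, while 4.55% of all genes were lower and 3.17% higher.

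Liver of control mothers held far less of these transcripts than liver of control fetuses. The level in control mothers was called lower than that in control fetuses for 44 of the 49 genes and higher for none, where 10.2% of all 18082 genes were called lower and 9.21% higher. The median ratio of mother over fetus was -1.45 on the log2 scale for G1 and the G1/S switch (6 of 8 lower), -3.16 for S phase (16 of 16 lower) and -2.69 for G2 and mitosis (22 of 25 lower), with all genes at 0.03. The SD per array was 0.22. These ratios come from levels on different arrays of the same slide, after normalisation between arrays.

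**Figure D3:**
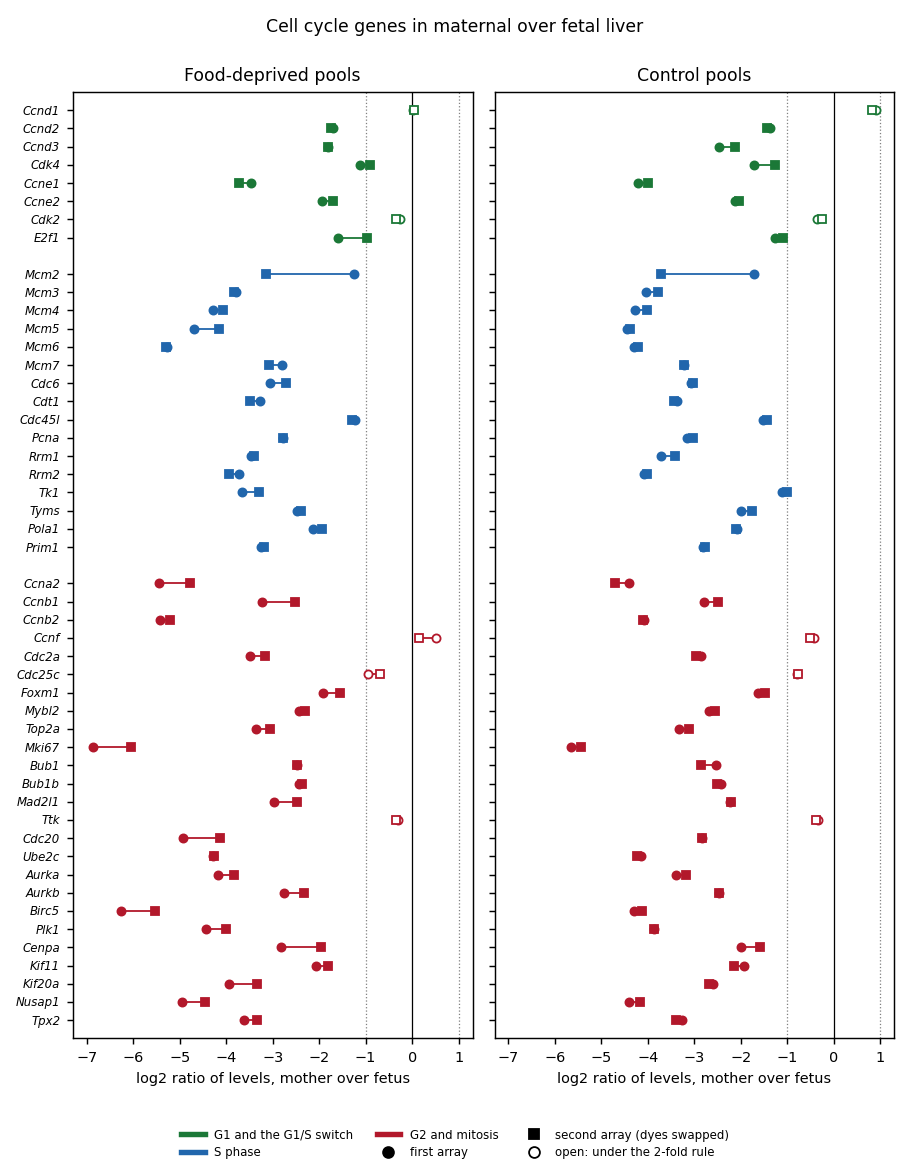
Log2 ratio of the level in mothers over that in fetuses for food-deprived pools (left) and control pools (right), by phase; circles are first arrays and squares second arrays, filled where called. In each comparison 44 of the 49 genes are called lower in the mother, and Ccnd1 lies above 0 in the control pools.

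Mki67 had the lowest ratio in the control pools, at -5.66 and -5.43, or 46.7-fold lower in mothers. Ccna2 followed at -4.40 and -4.70, then Mcm5 (-4.46 and -4.39), Nusap1 (-4.40 and -4.17), Mcm6 (-4.30 and -4.21), Birc5 (-4.31 and -4.13) and Ube2c (-4.16 and -4.23). The other 2 genes with means below -4 in S phase were Mcm4 (-4.14) and Rrm2 (-4.06), and Ccnb2 (-4.10) was the last such gene in mitosis. The 6 subunits of the helicase were lower in control mothers by 6.58-fold (Mcm2) to 21.5-fold (Mcm5), and the value of Mcm2 rests on arrays that disagree, at -1.72 and -3.72. Other measured probes of some called genes gave means under 2-fold: -0.48 for Nusap1, -0.24 for Top2a, -0.39 for Kif11 and -0.01 for Tyms.

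Ratios from -3.92 to -2.09 were found in S phase for Mcm3, Rrm1, Cdt1, Mcm7, Pcna, Cdc6, Prim1, Mcm2 and Pola1, and from -1.88 to -1.06 for Tyms, Cdc45l and Tk1. Cdc6 was not well above background in control mothers, and its lower limit was 8.17-fold on the brighter probe. The other probe of Cdc6 gave a mean of -1.82. In mitosis, means from -3.87 to -2.03 were found for Plk1, Tpx2, Aurka, Top2a, Cdc2a, Cdc20, Bub1, Kif20a, Ccnb1, Mybl2, Bub1b, Aurkb, Mad2l1 and Kif11, and Cenpa (-1.79) and Foxm1 (-1.56) were also lower. Tk1 had the smallest difference of the S-phase genes, at 2.09-fold lower in control mothers, and under median centring it no longer passed the rule.

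G1 genes were the exception in part. Cyclin E1 had the largest difference of the phase, at -4.21 and -4.00, or 17.2-fold lower in control mothers, although its second probe gave a mean of -0.94. Cyclin D3 (-2.47 and -2.13), Ccne2 (-2.12 and -2.04), Cdk4 (-1.71 and -1.27), Ccnd2 (-1.37 and -1.44) and E2f1 (-1.27 and -1.10) were lower too. Cdk2 (-0.36 and -0.25) was not called. Ccnd1 went the other way, at 0.90 and 0.81, or 1.81-fold higher in control mothers, short of the 2-fold rule. The uncalled mitotic genes were Cdc25c (-0.80 and -0.78), Ccnf (-0.43 and -0.51) and Ttk (-0.34 and -0.38), of which Cdc25c and Ttk were not well above background in the mother.

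In the food-deprived pools the same rule again gave 44 genes lower in the mother and none higher, where 10.3% of all 17891 genes were lower and 7.89% higher. Medians were -1.5, -3.30 and -3.21 for the 3 phases in the order above. Birc5 stood at -6.26 and -5.53 in food-deprived pools against -4.31 and -4.13 in control pools, Cdc20 at -4.93 and -4.13 against -2.83 and -2.84, and Tk1 at -3.66 and -3.30 against -1.12 and -1.0. Ccnd1 lay at 0.02 and 0.03, so its level in food-deprived mothers met that in food-deprived fetuses. Ccnf was 0.51 and 0.14. Lower limits of the fold in food-deprived mothers were 9.24 for Top2a, 7.41 for Cdc6, 7.33 for Ccnb1, 5.82 for Aurkb, 5.55 for Bub1, 3.82 for Kif11 and 2.39 for Cdc45l. These limits equal the measured mean folds and are no firmer than those. Other measured probes gave means nearer 0, up to -1.28 for Top2a, -1.58 for Cdc6, -2.43 for Ccnb1 and -0.38 for Kif11.

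**Figure D4:**
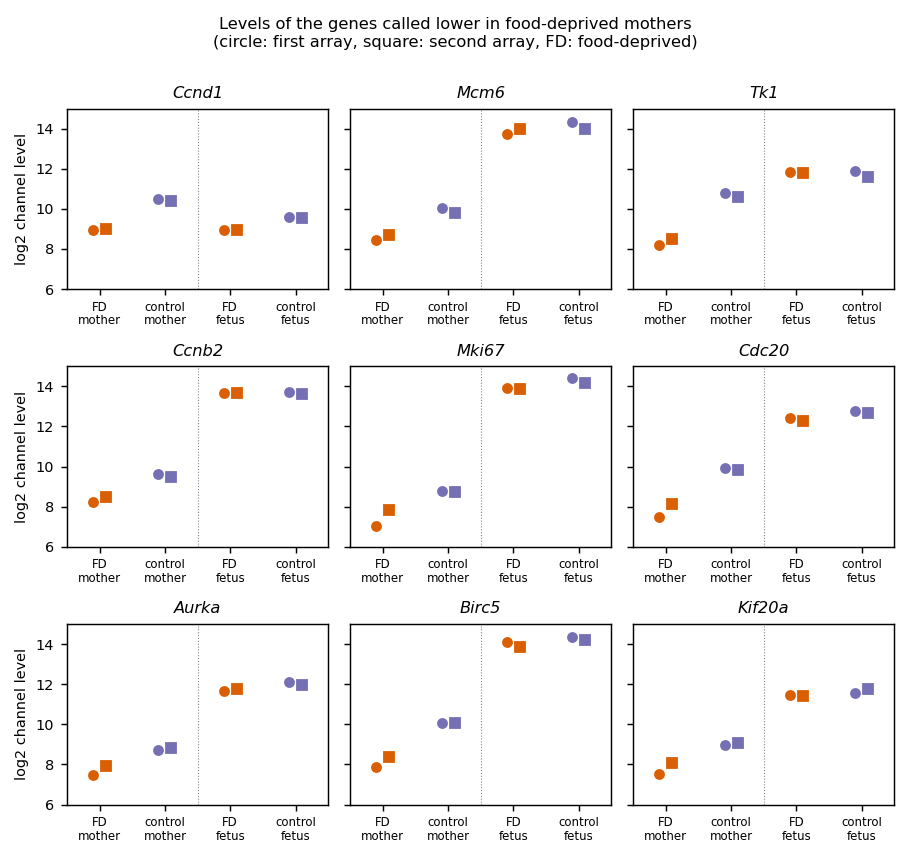
Log2 channel level of the 9 genes called lower in food-deprived mothers, in each pool on each array. Ccnd1 is highest in control mothers, and the other 8 are higher in both fetal pools than in either maternal pool.

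The levels below are those of the genes called lower in the mother. They were chosen by their maternal ratios, so a gap between the maternal pools follows largely from that choice. How often the pools of other genes overlapped was not counted. Ccnd1 had log2 levels of 8.96 and 8.98 in food-deprived mothers and 10.49 and 10.38 in control mothers, beside 8.95 and 8.95 in food-deprived fetuses and 9.60 and 9.56 in control fetuses. Tk1 had 8.18 and 8.50 in food-deprived mothers and 10.77 and 10.59 in control mothers, beside 11.85 and 11.80 in food-deprived fetuses and 11.89 and 11.59 in control fetuses. Between the fetal pools, both Ccnd1 and Tk1 stayed under the 2-fold rule. Cdc20 had 7.48 and 8.15 in food-deprived mothers and 9.91 and 9.84 in control mothers, beside 12.41 and 12.28 in food-deprived fetuses and 12.75 and 12.67 in control fetuses. Mki67 had 7.06 and 7.82 in food-deprived mothers and 8.77 and 8.74 in control mothers, beside 13.93 and 13.86 in food-deprived fetuses and 14.43 and 14.17 in control fetuses. Both genes stayed far below the fetal levels in each maternal pool.

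Birc5 had 7.86 and 8.35 in food-deprived mothers and 10.05 and 10.07 in control mothers, beside 14.11 and 13.88 in food-deprived fetuses and 14.36 and 14.20 in control fetuses. Ccnb2 had 8.25 and 8.46 in food-deprived mothers and 9.61 and 9.49 in control mothers, beside 13.68 and 13.66 in food-deprived fetuses and 13.70 and 13.60 in control fetuses. Mcm6 had 8.45 and 8.69 in food-deprived mothers and 10.05 and 9.77 in control mothers, beside 13.72 and 13.98 in food-deprived fetuses and 14.35 and 13.98 in control fetuses. Ccnb2, Mcm6 and Birc5 stayed under the 2-fold rule between the fetal pools. Aurka had 7.48 and 7.92 in food-deprived mothers and 8.73 and 8.80 in control mothers, beside 11.66 and 11.76 in food-deprived fetuses and 12.12 and 11.98 in control fetuses. Kif20a had 7.54 and 8.07 in food-deprived mothers and 8.97 and 9.08 in control mothers, beside 11.47 and 11.41 in food-deprived fetuses and 11.57 and 11.77 in control fetuses. The fetal gaps of Aurka and Kif20a were under the 2-fold rule as well.

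The wider pathway was read from lists of further genes. Over all measured genes, 1.88% were called lower and 1.56% higher in the mother, and 0.266% lower and 0.465% higher in the fetus. Of 19 brakes on the cycle, 17 were measured in the mother: 1 rose, none fell, and the median was -0.05. It was Cdkn1a, the Cdk inhibitor p21, at 1.48 and 1.12, or 2.47-fold higher. In the fetus none of 16 brakes was called, and Cdkn1a stood at 0.71 and 0.48. Of 21 growth drive and further G1 genes, 20 were measured in the mother with 2 rises and no fall (median -0.02), and 21 in the fetus with no call (median -0.15). The rises were in the growth-induced transcription factors Myc, at 1.31 and 1.07, and Jun, at 1.21 and 0.91. The 3 Myc probes gave means from 0.24 to 1.19, so that call rests on the brightest. Myc stood at 0.18 and 0.13 and Jun at 0.24 and 0.11 in the fetus.

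Further replication and mitotic genes were read in the same way. Of 38 replication genes, 35 were measured in the mother with 1 fall and no rise (median -0.26, with 32 below 0), and 37 in the fetus with no call (median -0.26, with 36 below 0). The fall was in Rfc5, a subunit of the clamp loader, at -1.24 and -1.06. A single fall in a list of this size is near the 1.88% called lower over all genes. Of 42 further mitotic genes, 34 were measured in the mother with 3 falls and no rise (median -0.28, with 33 below 0), and all 42 in the fetus with no call (median -0.15, with 37 below 0). In 7 of the 34, 1 maternal pool was well above background and the other was so on neither array. The falls were in Cdca3, at -1.43 and -0.89 on its brighter probe with a mean of -0.12 on the other, in the kinetochore motor Cenpe, at -1.51 and -0.80, and in Prc1, which bundles the central spindle, at -1.47 and -0.64. In control pools, 27 of 37 further replication genes and 39 of 42 further mitotic genes were lower in the mother than in the fetus, and none was higher. Of the brakes, 6 of 17 were lower there and none higher, with a median of -0.20. Of the growth drive and further G1 genes, 9 of 21 were lower there and 1 was higher, with a median of -0.77. Over all genes, 10.2% were called lower and 9.21% higher in that comparison.

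Some markers of other cell types moved in the same maternal pools, where 1.88% of all genes were called lower and 1.56% higher. In the mother, 3 of 10 Kupffer cell and macrophage markers fell (Adgre1, Cd5l and Aif1), and their summed level was 13561 to 14383 in food-deprived mothers and 22233 to 23572 in control mothers. The granulocyte and monocyte precursor markers summed to 2735 to 2768 in food-deprived mothers and 4329 to 4478 in control mothers, with Ly6c1 called lower and with Elane and Camp not well above background in either pool. The 6 measured markers of that list did not fall as a set. Their median ratio was -0.03, with 2 below 0 on both arrays and 3 above 0 on both, and Ly6c1 was lowest at -1.51. Of 7 stellate cell and fibroblast markers Col3a1 fell, with sums of 14118 to 14570 in food-deprived mothers and 12518 to 13973 in control mothers. The median ratio of these 7 was -0.24, with 5 below 0 on both arrays and 1 above 0 on both. Of 7 endothelial markers Lyve1 rose on its brighter probe, with a mean of 0.15 on the other and sums of 4044 to 4619 in food-deprived mothers and 4255 to 4579 in control mothers. None of 5 hepatocyte, 7 erythroid, 7 lymphocyte, 4 megakaryocyte, 4 fetal hepatocyte or 5 bile duct markers measured in the mother was called. In the fetus no marker of any of these lists was called. The erythroid markers summed to 13045 to 14180 in food-deprived mothers and 13633 to 15007 in control mothers. The part of these cells in the maternal falls was not tested.

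Between mothers and fetuses the blood-forming cells differed far more. All 11 erythroid markers on the array were lower in control mothers than in control fetuses, with summed levels of 13633 to 15007 in control mothers and 146870 to 148523 in control fetuses. The granulocyte and monocyte precursor markers summed to 4329 to 4478 in control mothers and 75594 to 105756 in control fetuses, and the megakaryocyte markers to 819 to 836 in control mothers and 21280 to 23338 in control fetuses. The 5 fetal hepatocyte markers, Afp and H19 among them, summed to 881 to 885 in control mothers and 132774 to 143132 in control fetuses. Hepatocyte markers summed to 203322 to 238164 in control mothers and 166250 to 234462 in control fetuses, so hepatocyte RNA was present in both. How much of the difference in cell cycle genes belongs to each of these cell types was not tested.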

How the data were processed

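Liver RNA of food-deprived and control mice was measured on 4 two-colour Agilent arrays, 2 for mothers and 2 for fetuses, all on a single slide. Per the file headers, the scanner files deposited give linear intensity values of spot and local background in each dye. The software's own background-subtracted and dye-normalised intensity values, and a log10 ratio (red over green), stand beside them per the file headers. Feature Extraction was version 9.5.1.1 per the file headers and 9.5.3.1 per the submitters' processing notes. The deposited series table was a linear ratio of red over green (correlation at least 0.9999 with the log of the scanner's processed signals). What the minus sign on its Cy5 food-deprivation columns means is unknown, and it was dropped (column medians -0.92, 0.94, -0.88 and 0.88).

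Intensities were corrected with normexp (offset 50) and normalised by loess within arrays in limma 3.58.1 (R 4.3.3), with control spots at weight 0. Ratios were turned to food deprivation over control by the dyes in the labels. Levels were compared between arrays after Aquantile normalisation. Spots with outlier flags (215 to 257 gene spots per array) were left out, and spots of a probe were averaged. A probe was measured if either pool, or for levels either animal, was well above background on both arrays, and the brightest measured probe stood for its gene. For a side that stayed dim, a lower limit of the fold is given, which sets the bright side's mean against the dim signal or, where higher on that array, the lowest signal called above background. It can carry dye bias. Of 41174 probes, 22951 were named through their accession in RefSeq (GRCm38.p6) and 18223 kept the name in the files. The call rule was tested on simulated data in which only brighter genes were changed, so calls of dim genes were not tested.

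The genes, the lists and the motifs were chosen with earlier results of these data known. All 49 cell cycle genes are named, and other list genes only where they were called in mother or fetus. Median centring, the scanner's own ratios, corrected stained backgrounds (net signal under -20), an offset of 16, other probe rules, single arrays, a 1.5-fold rule and the series table were tried as alternatives. Those for the food-deprived level were added after seeing the data. The number of arrays limits the precision.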

Additional observations from a re-analysis of the deposited data

Results flagged for a closer look

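In 7 genes both maternal arrays lay above 0 and both fetal arrays below 0, and the difference between mother and fetus was not tested. The share of all genes with such opposite signs was not counted. The fetal signs depend on the scaling: 44 of 49 fetal means lay below 0 with loess and 29 with median centring. All 7 were under the 2-fold rule in both animals. In G1 they were Ccne1, with a maternal minus fetal log2 ratio of 0.51, Ccnd3, with 0.48, and Cdk4, with 0.47. The second probe of Ccne1 had a maternal mean of -0.05. In S phase they were Mcm2, with 0.52, and Rrm2, with 0.23. In G2 and mitosis they were Ccnf, with 0.79, and Mybl2, with 0.25. The Ccnf ratios were 0.81 and 0.52 in the mother and -0.12 and -0.12 in the fetus. Those of Mybl2 were 0.04 and 0.09 in the mother and -0.20 and -0.16 in the fetus. The maternal ratios of Mybl2 were smaller than the maternal array SD of 0.16. Cyclin D3 and Cdk4, which act as partners, had ratios above 0 in the mother while Ccnd1 fell there.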

How the results depend on the processing

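With the scanner software's own ratios, in the mother 26 genes were lower and 1 higher, with medians of -0.36 (G1 and the G1/S switch), -0.38 (S phase) and -1.97 (G2 and mitosis). Maternal minus fetal response then gave 22 lower and 1 higher, with medians of 0.03, -0.02 and -1.80 in that order of phases. The S-phase median in the fetus was -0.34, the control-level medians were -2.02, -4.03 and -4.38, and the food-deprived-level medians -2.10, -4.14 and -6.13. The series table gave 26 lower and 1 higher in the mother, with medians of -0.37, -0.39 and -1.98, and an S-phase median of -0.34 in the fetus. Both differ from the main values in background correction, dye normalisation and offset, and which of these moved the values was not tested beyond the offset of 16 below.

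Median centring left 5 maternal falls of the 9, without Aurka, Ccnb2, Ccnd1 and Mcm6 though their ratios kept their sign, for which the cause was not tested. Its medians were -0.01, -0.04 and 0.01 in the fetus, -0.23 for S phase in the mother, -0.04 and -0.17 for G1 and S phase of the maternal minus fetal response, -3.01 and -2.58 for S phase and mitosis of the control level, and -3.40 for S phase of the food-deprived level. A looser rule with a mean of 1.5-fold gave 1 lower gene in the fetus (Ccnd1), and 14 lower and 1 higher in the mother.

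Correcting stained backgrounds gave medians of -0.11 and -0.31 for G1 and S phase in the mother, -3.38 and -2.99 for S phase and mitosis of the control level, and -1.72, -3.45 and -3.68 for the food-deprived level. An offset of 16 gave 10 maternal falls, -0.12, -0.33 and -0.65 in the mother, -0.01 and -0.63 for S phase and mitosis of the maternal minus fetal response, -3.37 and -3.11 for the control level, and -1.74, -3.54 and -3.77 for the food-deprived level. The mean over probes gave -0.23 for S phase in the mother, -2.62 for mitosis of the control level, and -3.17 and -2.64 for S phase and mitosis of the food-deprived level, and Mki67 was no longer called in the mother. Without a filter on dim probes the medians of G1 and S phase were 0.03 and -0.20 in the mother, and 0.13, 0.08 and, for mitosis, -0.24 for the maternal minus fetal response.

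With single arrays the maternal falls numbered 7 to 10, with Aurka and Mki67 lost on the second array and Ccna2 added on the first. Medians ranged from -0.27 to -0.17 (G1), -0.29 to -0.27 (S phase) and -0.19 to -0.12 (mitosis) in the fetus. For the maternal minus fetal response they ranged from 0.13 to 0.20 (G1), -0.01 to 0.04 (S phase) and -0.56 to -0.13 (mitosis), and for mitosis in the mother from -0.62 to -0.28. They were -3.33 to -3.19 (S phase) and -2.84 to -2.79 (mitosis) for the control level, and -3.26 to -3.24 (S phase) for the food-deprived level. Among single genes in mother and fetus, 654 values under the alternatives stayed within the spread between arrays of the main value, 156 moved further, and no called gene changed sign. The motif counts of the phases kept within 1.5 times with 150 bases before the start. Over all genes the share with a cell cycle homology region went from 21.7% to 13.7%, a larger change. No paired analysis was possible because each group is 1 pool and no test was made. Dim signal limits the ratios of genes near background in the mother.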
